A study of Homo sapiens with 4 samples.

Results

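The mRNA levels of 10 genes of H3K4 methylation and enhancer activation were followed in H1299 cells treated with ginseng nanoparticles. The genes were KMT2A, KMT2B, KMT2C, KMT2D, KMT2E, SETD1A, SETD1B, KDM6A, EP300 and CREBBP, taken by symbol from the 61541 gene rows of the count files. The set was selected on the nanoparticle against PBS fold changes of these same libraries, so those fold changes are given as a description and no test is made on them. H1299 is an established human lung carcinoma cell line. The 2 nanoparticle libraries and the 2 PBS libraries came from cells grown in the same serum-containing medium, with or without nanoparticles made from ginseng, and PBS (phosphate-buffered saline) was the control. The labels give no dose, exposure time or plant part, and the nanoparticle libraries, grouped by their treatment label, have titles that say control as well. Whether the 2 replicates of a group were separate cultures is not stated, and the p-values below therefore measure only how far these libraries spread, which may be technical.

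Methylation of lysine 4 of histone H3 marks active promoters and enhancers. In human cells it is laid down by large complexes built around 1 catalytic subunit of the KMT2 or SETD1 kind, joined by a shared core of WDR5, RBBP5, ASH2L and DPY30. KMT2C and KMT2D monomethylate enhancers and carry the H3K27 demethylase KDM6A in their complexes, KMT2A and KMT2B act at selected promoters, and SETD1A and SETD1B supply most promoter trimethylation. EP300 and CREBBP acetylate H3K27 at the same enhancers. Several of these genes are recurrently mutated in human tumours.

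The depth was 24979081 and 24863313 counts on genes for the nanoparticle libraries and 22252686 and 22456882 for the PBS libraries. KRT8, KRT18 and VIM, expressed by this line, were abundant in every library, NKX2-1 and EPCAM were at most 1.03 CPM, and 8 markers of blood, vessel, fibroblast and liver cells together reached 0.94 to 1.17 CPM (counts per 1000000 of TMM-scaled library size), with PTPRC and HBB at 0 in all 4 libraries. Reads assigned to no feature made up 2.44% and 2.78% of reads in the nanoparticle libraries, against 2.34% and 2.42% in the PBS libraries. Reads without a unique position made up 4.51% and 3.51% in the nanoparticle libraries, against 4.75% and 4.64% in the PBS libraries. The part of these differences in the results below was not tested.

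Promoter sequence was available from RefSeq (GRCh38.p14) for 9 of the 10 genes, all but SETD1B. Over the 250 bases before the start site the 9 promoters had a GC content of 65.2% to 92.0%, with a median of 72.4%, against a median of 58.0% over 35116 RefSeq promoters. They held 23 to 48 CG dinucleotides, against a median of 11 over all promoters, and 25.8% of all promoters held 23 or more. The sequences of 4 genes whose RefSeq start lies within 20 bases of the start of the principal GENCODE 29 transcript are shown, to set the paralogues KMT2A and KMT2B side by side and to show the promoter richest in GC, that of KMT2C. Each is given 5′ to 3′ on the strand of its gene, ending just before the start site. Capitals mark matches to the motifs searched, which are GC boxes (GGGCGG on either strand) except for 1 antioxidant response element in CREBBP.
KMT2A: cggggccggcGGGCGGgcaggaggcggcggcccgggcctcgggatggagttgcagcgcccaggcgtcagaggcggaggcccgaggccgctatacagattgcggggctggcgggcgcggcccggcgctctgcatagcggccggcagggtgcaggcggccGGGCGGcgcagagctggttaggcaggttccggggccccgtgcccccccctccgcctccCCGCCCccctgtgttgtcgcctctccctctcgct
KMT2B: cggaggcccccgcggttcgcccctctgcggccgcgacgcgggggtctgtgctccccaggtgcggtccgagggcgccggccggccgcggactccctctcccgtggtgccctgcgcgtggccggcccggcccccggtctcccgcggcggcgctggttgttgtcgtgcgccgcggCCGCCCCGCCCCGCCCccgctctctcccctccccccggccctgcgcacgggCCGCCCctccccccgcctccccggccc
KMT2C: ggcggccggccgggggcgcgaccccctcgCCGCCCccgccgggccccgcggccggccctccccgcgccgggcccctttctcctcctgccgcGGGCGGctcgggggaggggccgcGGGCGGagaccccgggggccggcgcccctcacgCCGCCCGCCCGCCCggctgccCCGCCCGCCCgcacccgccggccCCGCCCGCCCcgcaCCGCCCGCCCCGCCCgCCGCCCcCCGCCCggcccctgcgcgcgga
CREBBP: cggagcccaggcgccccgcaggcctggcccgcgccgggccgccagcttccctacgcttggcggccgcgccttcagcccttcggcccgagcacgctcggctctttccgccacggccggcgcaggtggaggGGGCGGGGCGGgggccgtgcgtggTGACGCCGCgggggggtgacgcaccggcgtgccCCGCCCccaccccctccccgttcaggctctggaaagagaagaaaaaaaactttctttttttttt
They lie at chr11:118436242-118436491 on the plus strand for KMT2A, chr19:35717753-35718002 on the plus strand for KMT2B, chr7:152436004-152436253 on the minus strand for KMT2C and chr16:3880714-3880963 on the minus strand for CREBBP.

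Among the motifs searched on both strands, the GC box was the one that most of these promoters shared. It was in 8 of 9, all but EP300, and in 42.6% of all promoters, with 15 matches, many of them overlapping, in KMT2C. The antioxidant response element (TGACNNNGC), the site bound by NRF2, matched in 2 of 9, KMT2D and CREBBP, and in 10.9% of all promoters. The CCAAT box matched in KDM6A alone, with 32% of all promoters holding it. The NRF1 site (GCGCATGCG), the ETS core (CCGGAAG), the TATA box (TATAAA), the CRE (TGACGTCA) and the YY1 site (AAGATGGCG) had no match in the 9 windows, and 1.64%, 8.52%, 10.7%, 1.65% and 0.652% of all promoters held them. The RefSeq start of KMT2D is 5470 bases from the GENCODE start of its principal transcript. That distance is 806 bases for EP300, 460 for SETD1A and 323 for KDM6A. The windows of these genes, and the motifs found or missing in them, may therefore not be those of the promoters used in these cells.

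KMT2D (chr12:49018975-49059774 in GENCODE 29 on GRCh38, minus strand), the main enhancer H3K4 monomethyltransferase, had the largest difference of the 10. It stood at 98.9 and 107 CPM in the nanoparticle libraries and at 72.3 and 75.8 CPM in the PBS libraries. Both nanoparticle values lay above both PBS values, with a log2 fold change of 0.47 (SE 0.044), or 38.9% more. In these bulk libraries more mRNA per cell and more cells with the mRNA cannot be told apart. Its paralogue KMT2C (chr7:152134922-152436005, minus strand) was the least abundant of the KMT2 genes, at 31.4 and 31.0 CPM in the nanoparticle libraries and 22.7 and 24.1 CPM in the PBS libraries. The groups did not overlap, and the log2 fold change was 0.41 (SE 0.063). Of the windows of 50 bases along the KMT2C transcript, 6.98% also occur in transcripts of 10 other annotated genes, among them BAGE2 and the pseudogenes KMT2CP1 to KMT2CP5, which had 0 counts in all 4 libraries. Another, TPTEP1, had 217 and 252 counts in the nanoparticle libraries and 205 and 215 in the PBS libraries, and a gene without a symbol had 114 and 100 in the nanoparticle libraries and 116 and 126 in the PBS libraries. The level of KMT2C is uncertain to that extent, since reads without a unique position were not counted.

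KDM6A (chrX:44873177-45112602, plus strand), the H3K27 demethylase of the KMT2C and KMT2D complexes, was the member with the smallest difference. Its levels were 19.5 and 22.6 CPM in the nanoparticle libraries and 18.8 and 20.4 CPM in the PBS libraries. The groups overlapped, and the log2 fold change of 0.10 was close to its standard error of 0.081. Without nanoparticle replicate 2 it was -0.0049, and without nanoparticle replicate 1 it was 0.21. It was 0.045 without PBS replicate 1 and 0.16 without PBS replicate 2. KMT2D counts were 5.07 and 4.72 times those of KDM6A in the nanoparticle libraries, against 3.85 and 3.71 times in the PBS libraries. That ratio is taken within each library and does not depend on scaling between libraries. It does keep any trend of fold change with transcript length, described below, since KMT2D has 19419 bases and KDM6A 5438. With that trend removed the log2 fold change was 0.32 for KMT2D and 0.066 for KDM6A.

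KMT2A (chr11:118436464-118526832, plus strand), the mixed-lineage leukaemia gene that maintains HOX expression, had 83.7 and 84.4 CPM in the nanoparticle libraries and 65.6 and 68.6 CPM in the PBS libraries. The spread within each group was small beside the gap between them, and the log2 fold change was 0.32 (SE 0.042). Its paralogue KMT2B (chr19:35718019-35738878, plus strand), which methylates other promoters, was the most abundant of the 10 by CPM, at 149 and 159 CPM in the nanoparticle libraries and 134 and 145 CPM in the PBS libraries. The gap between the highest PBS and the lowest nanoparticle library was narrow here, and the log2 fold change was 0.15 (SE 0.041), or 0.087 without PBS replicate 1. Within a library KMT2A had 0.56 and 0.529 times the counts of KMT2B in the nanoparticle libraries, against 0.49 and 0.472 times in the PBS libraries. KMT2E (chr7:105014179-105114361, plus strand), a divergent member with a SET domain for which little methyltransferase activity is known, had 52.0 and 54.0 CPM in the nanoparticle libraries and 45.7 and 49.6 CPM in the PBS libraries, with a log2 fold change of 0.15 (SE 0.052). Its groups did not overlap either, and the log2 fold change was 0.093 without PBS replicate 1.

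SETD1A (chr16:30957294-30984664, plus strand) and SETD1B (chr12:121804180-121832584, plus strand), the catalytic subunits of the complexes that trimethylate H3K4 broadly at promoters, differed little between the groups and in like measure. SETD1A had 92.7 and 96.0 CPM in the nanoparticle libraries and 82.9 and 89.7 CPM in the PBS libraries, with a log2 fold change of 0.13 (SE 0.043). SETD1B had 49.5 and 50.9 CPM in the nanoparticle libraries and 43.0 and 46.7 CPM in the PBS libraries, with a log2 fold change of 0.16 (SE 0.052). For both genes PBS replicate 2 lay closer to the nanoparticle libraries than PBS replicate 1 did, and without PBS replicate 1 the log2 fold change was 0.071 for SETD1A and 0.10 for SETD1B. The ratio of SETD1A to SETD1B counts was 1.87 and 1.89 in the nanoparticle libraries and 1.93 and 1.92 in the PBS libraries.

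The coactivators EP300 (chr22:41091786-41180079, plus strand) and CREBBP (chr16:3725054-3880726, minus strand) are paralogous acetyltransferases. EP300 had 33.3 and 33.9 CPM in the nanoparticle libraries and 25.7 and 26.4 CPM in the PBS libraries, a log2 fold change of 0.37 (SE 0.06). CREBBP had 59.3 and 60.9 CPM in the nanoparticle libraries and 47.8 and 53.9 CPM in the PBS libraries, a log2 fold change of 0.24 (SE 0.053). The groups did not overlap for either gene, and the PBS libraries lay further apart for CREBBP than for EP300. Without PBS replicate 1 the log2 fold change of CREBBP was 0.16, and it was 0.33 without PBS replicate 2, while EP300 stayed between 0.35 and 0.39.

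**Figure D1:**
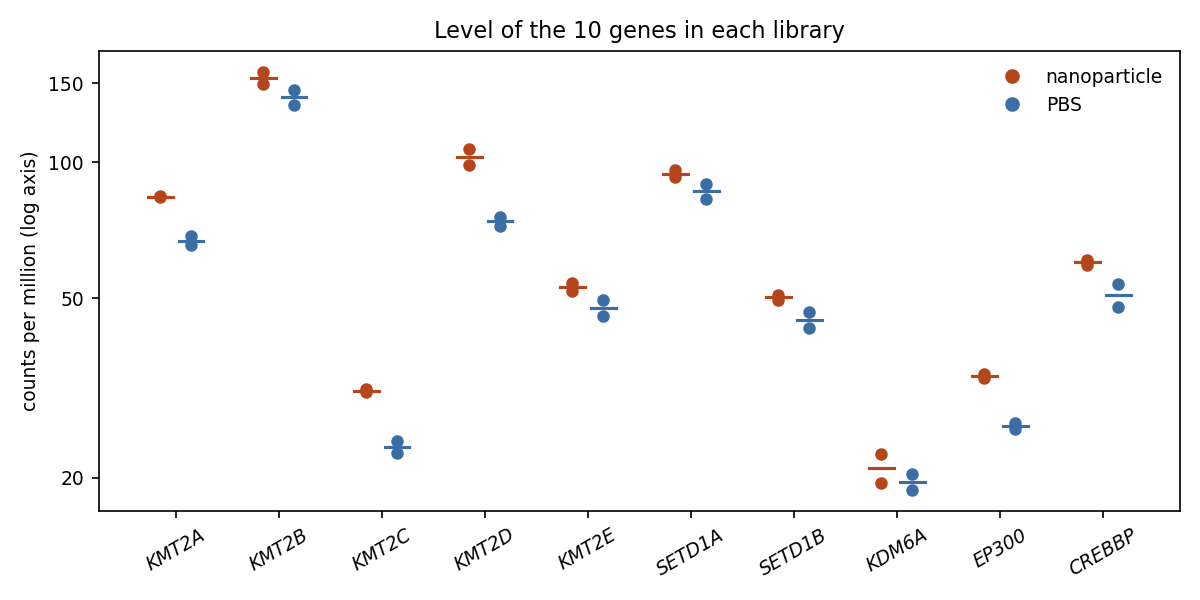
Level of each of the 10 genes in CPM (log axis) in the nanoparticle and the PBS libraries, with 1 point per library and a bar at the mean of 2. The groups are apart for every gene except KDM6A, and the widest gaps are those of KMT2D, KMT2C, EP300 and KMT2A.

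All 10 genes passed the filter on low counts, and all had a fold change above 0. The median of their log2 fold changes was 0.20, against 0.00056 over all 15778 tested genes, and 9 of the 10 had non-overlapping groups, higher with nanoparticles, which 23.7% of tested genes had. In the fit over all genes (edgeR quasi-likelihood test, Benjamini-Hochberg adjustment, threshold 0.05) 2.58% of genes passed and 1.75% passed with a higher level. KMT2A, KMT2C, KMT2D, EP300 and CREBBP were past that threshold, and nothing is read from this count of 5, since the genes were proposed from the same contrast. The 5 genes past it had log2 fold changes of 0.24 or more and the other 5 of 0.16 or less. Summed over the 10 genes, the level was 669.7 and 700.0 CPM in the nanoparticle libraries and 558 and 600.5 CPM in the PBS libraries. PBS replicate 1 was the lowest library for each of the 10 genes, and nanoparticle replicate 2 was the highest for all but KMT2C. In edgeR's test 0 genes of the whole table passed without PBS replicate 1 (1562 at an unadjusted p under 0.05) and 0 without PBS replicate 2 (1672 unadjusted). The 10 genes then had a median of 0.13 and of 0.28.

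The transcripts of these genes are long, and long transcripts as a whole were higher with nanoparticles. The principal transcripts of the 10 genes run from 5438 bases in KDM6A to 19419 bases in KMT2D, with a median of 9028, against 2856 over all tested genes. Over 11081 genes of at least 5 CPM with a known length, Spearman's rank correlation of length with log2 fold change was 0.42, across genes that share the same 4 libraries and are not independent. In the 1109 shortest of these genes, up to 1349 bases, the median log2 fold change was -0.063, and in the 1108 longest, from 7237 bases, it was 0.082. Of 416 genes with transcripts of at least 10000 bases 19.2% passed the threshold with a higher level, and their median log2 fold change was 0.12. The 416 include 4 members, KMT2A, KMT2C, KMT2D and CREBBP. Whether these 4 passed is not set against that share, since they were proposed from the same contrast. In all, 3 genes of that length, KMT2D included, had a log2 fold change at least as large as that of KMT2D. Fold change also went with GC content over the expressed genes (rank correlation -0.33). The median GC content of the 10 transcripts was 53.9%, against 48.7% over all tested genes.

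**Figure D2:**
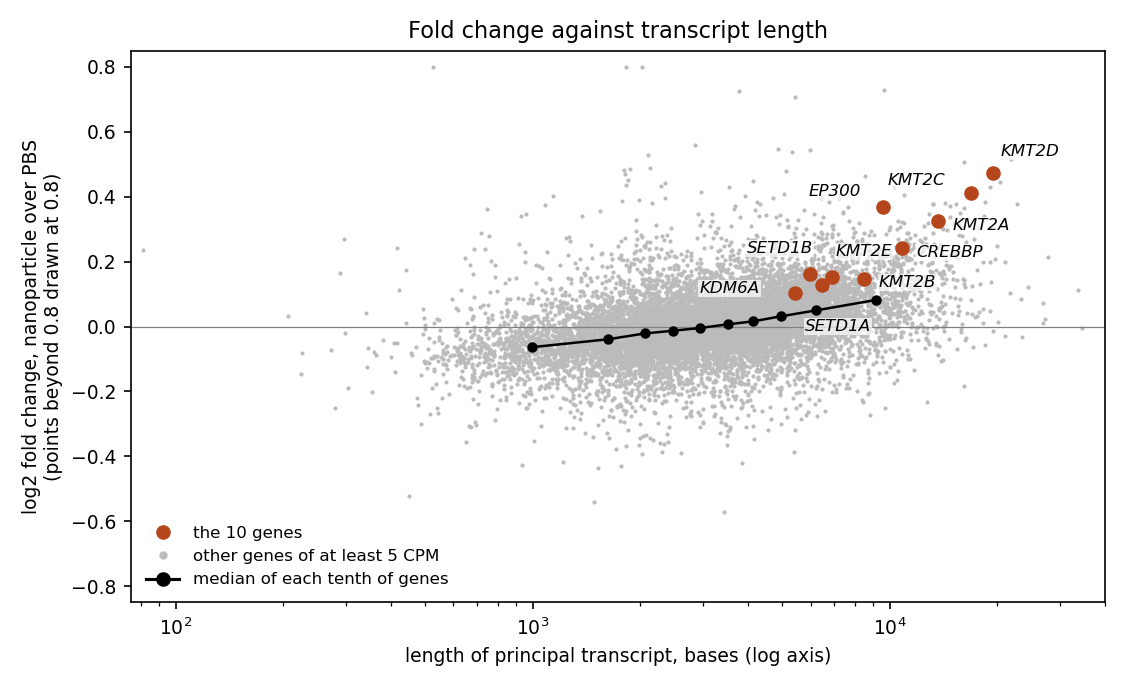
Log2 fold change, nanoparticle over PBS, against length of the principal transcript in bases (log axis) for genes of at least 5 CPM. The black line joins the medians of 10 equal groups of genes, which lie between -0.063 for the shortest and 0.082 for the longest, and the 10 genes all lie above 0.082, with KMT2D at 0.47. Grey points beyond 0.8 are drawn at 0.8.

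Within the 10 genes the rank correlation of fold change with length was 0.88, and with GC content it was 0.01. The 10 were chosen on these fold changes and share the same 4 libraries, so correlations within them are a description only. The trend fitted over all expressed genes put KMT2D at a log2 difference of 0.15, KMT2C at 0.14 and KMT2A at 0.12, and the shortest member, KDM6A, at 0.039. With that trend removed in each library, the log2 fold change was 0.32 for KMT2D, 0.28 for EP300, 0.27 for KMT2C and 0.21 for KMT2A. It was 0.14 for CREBBP, 0.12 for SETD1B, 0.096 for KMT2E, 0.076 for SETD1A, 0.072 for KMT2B and 0.066 for KDM6A. The median of the 10 was then 0.13, and it was 0.17 with length and GC trends both removed. The rank correlation of length with fold change within the 10 was still 0.82 after the length trend was removed. A trend of another shape at the longest transcripts was not tested.

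**Figure D3:**
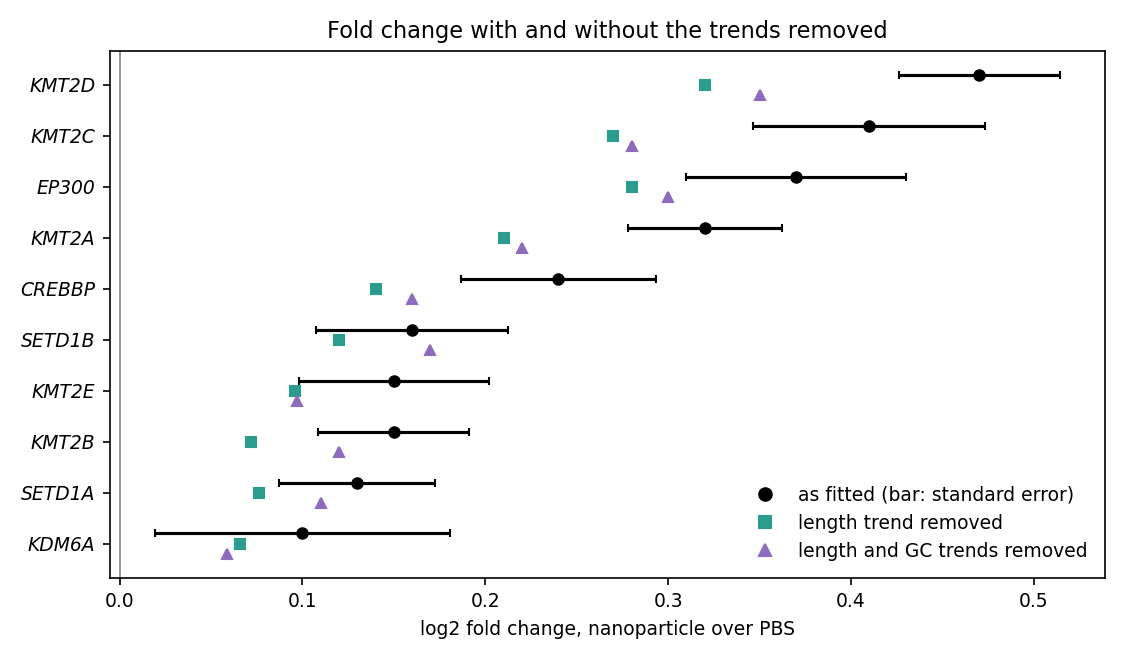
Log2 fold change, nanoparticle over PBS, of the 10 genes as fitted (circles, bars of 1 standard error), with the length trend removed (squares) and with length and GC trends removed (triangles). KMT2D moves to 0.32 and KMT2C to 0.27 with the length trend removed, and no gene falls below 0.

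The proteins that work with these enzymes were examined through 10 lists of 101 genes, of which 100 were tested. The lists were chosen with earlier results of these data known. Their counts and p-values, here and below, are therefore a description and not independent support. Of these 8 rose and none fell in edgeR's quasi-likelihood test with adjustment over all genes, beside 1.75% of all genes rising and 0.83% falling. The groups did not overlap for 40 of the 100 with nanoparticles higher and for 15 with nanoparticles lower, beside 23.7% and 23.2% of all genes. By DESeq2 BOD1L1 and ASH1L passed, by limma-voom all 8, and by both tools 0 were lower after adjustment. At an unadjusted p under 0.05 edgeR had 23 of the 100 higher and 1 lower, beside 9.18% of all genes higher and 7.61% lower, which are also the shares to read the unadjusted counts of single lists against. In edgeR's test without PBS replicate 1, and likewise without PBS replicate 2, 0 of the 8 passed. Without nanoparticle replicate 1 BOD1L1, ASH1L, SETD2 and NSD1 passed, and without nanoparticle replicate 2 ASH1L did. The 8 were genes of long transcripts too, from 5754 bases in RCOR1 to 12892 bases in NSD1. Of 2711 genes of at least 5 CPM with transcripts of at least 5000 bases, 7.19% passed higher in the main test. These 2711 include the 10 genes. ASH1L was the only one of the 8 past the threshold with the length trend removed, beside 0.767% of all genes past it and higher. With length and GC trends removed it was again the only one past and higher, beside 0.913% of all genes.

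The shared core of the methyltransferase complexes lay near 0. The median log2 fold change of WDR5, RBBP5, ASH2L and DPY30 was -0.0039, and none of the 4 passed by edgeR, DESeq2 or limma-voom, nor at an unadjusted p under 0.05. WDR5, a scaffold of the complex, had 187 and 188 CPM in the nanoparticle libraries and 190.1 and 192 CPM in the PBS libraries, with nanoparticles lower and a log2 fold change of -0.032 (SE 0.033). DPY30, the smallest core subunit, had the smallest p of the 4 (48.6 and 47.8 CPM in the nanoparticle libraries, 52.9 and 50.0 CPM in the PBS libraries; log2 -0.094, SE 0.05, edgeR adjusted p = 0.351). Of 12 subunits particular to one kind of complex or cofactors of KMT2A, 2 rose. BOD1L1, of the SETD1A complex, had 103 and 102 CPM in the nanoparticle libraries and 88 and 88.8 CPM in the PBS libraries (log2 0.21, SE 0.038, edgeR adjusted p = 0.00382). NCOA6, of the KMT2C and KMT2D complexes, had 81.6 and 85.1 CPM in the nanoparticle libraries and 71.2 and 76.0 CPM in the PBS libraries (log2 0.18, SE 0.044, adjusted p = 0.0309), and did not pass by DESeq2. With the length trend removed BOD1L1 had log2 0.12 (adjusted p = 0.156) and NCOA6 log2 0.097 (adjusted p = 0.305). Of the 12, 3 were higher and 1 lower at an unadjusted p under 0.05 in edgeR's main test. PSIP1 was the lower one, at 153 and 159 CPM in the nanoparticle libraries and 167 and 161 CPM in the PBS libraries. Its log2 fold change was -0.076 (SE 0.035, edgeR adjusted p = 0.283).

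**Figure D4:**
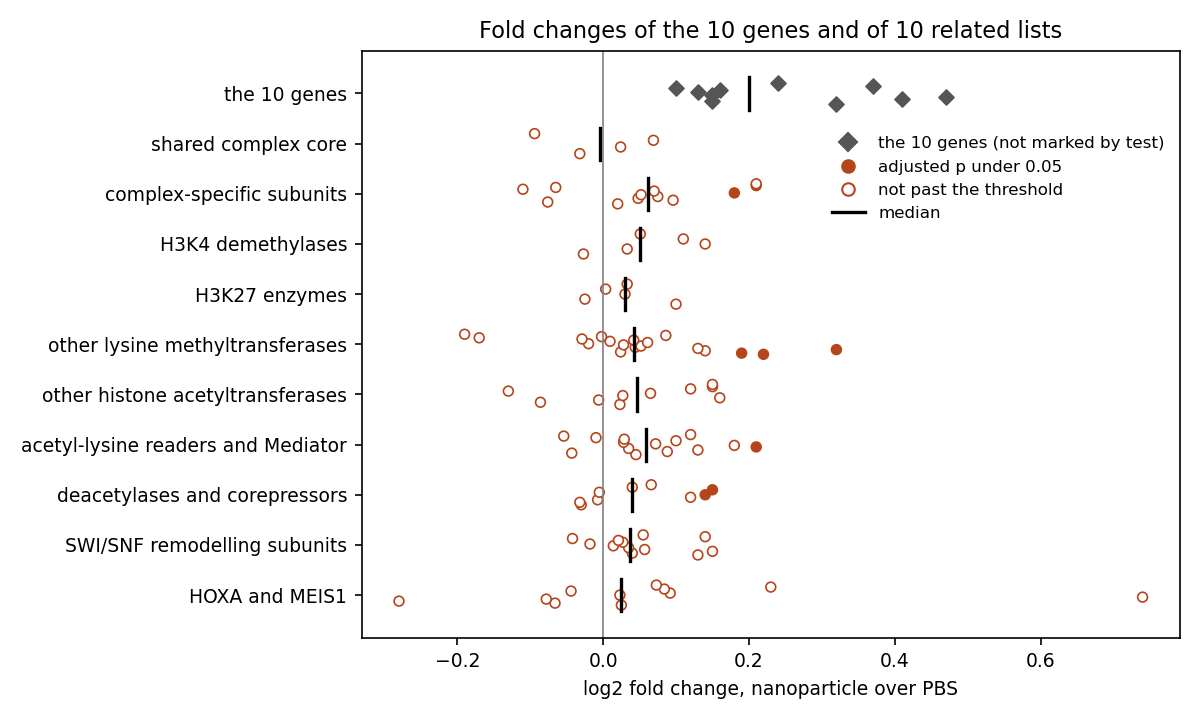
Log2 fold change, nanoparticle over PBS, of the 10 genes (diamonds) and of the genes of 10 related lists (circles, filled where the adjusted p was under 0.05), with the median of each list as a bar. The 10 genes have a median of 0.20, and the medians of the lists lie between -0.0039 and 0.061. The 10 were chosen on these fold changes, so the 2 kinds of median are a description and not a comparison. Their transcripts are also longer, with a median of 9028 bases against list medians of 2295 to 6119.

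The enzymes that remove the same mark did not pass in the main test. Of 5 H3K4 demethylases none did by edgeR, DESeq2 or limma-voom, with 2 higher at an unadjusted p under 0.05. KDM5A, a demethylase of trimethylated H3K4, came closest (log2 0.14, SE 0.039, edgeR adjusted p = 0.069). It had 95.1 and 97.1 CPM in the nanoparticle libraries and 85.8 and 89.0 CPM in the PBS libraries. KDM5A passed in 3 of the 17 alternatives described below, all edgeR fits. They were scaling by total counts, a required mean of at least 50 counts, and the replicate block. Among KDM6B, EZH1, EZH2, EED and SUZ12, which remove or add methyl groups on H3K27, none passed by any of the 3 tools, and none had an unadjusted p under 0.05. KDM6B, the paralogue of KDM6A, had a log2 fold change of 0.10 (SE 0.081).

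Of 18 other histone lysine methyltransferases 3 rose. ASH1L, an H3K36 methyltransferase, had 56.9 and 57.6 CPM in the nanoparticle libraries and 45.8 and 46.0 CPM in the PBS libraries (log2 0.32, SE 0.047, edgeR adjusted p = 0.000666). It also passed with the length trend removed (log2 0.22, adjusted p = 0.0191). SETD2, which trimethylates H3K36, and NSD1, which dimethylates it, rose by log2 0.22 (adjusted p = 0.00689) and 0.19 (adjusted p = 0.0157). Without the length trend SETD2 had log2 0.15 (adjusted p = 0.0817) and NSD1 log2 0.08 (adjusted p = 0.387), and neither passed. Neither passed by DESeq2. The other 15, among them NSD2 (log2 0.024) and EHMT2 (log2 -0.02), did not pass in the main test. At an unadjusted p under 0.05, 5 of the 18 were higher and 0 lower. DOT1L (log2 0.13, SE 0.040, edgeR adjusted p = 0.0857) passed with the replicate block and with the GC trend removed.

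Of 10 acetyltransferases other than EP300 and CREBBP none passed by edgeR, DESeq2 or limma-voom, with 3 higher at an unadjusted p under 0.05. NCOA3, a nuclear receptor coactivator, had the smallest p (52.3 and 53.9 CPM in the nanoparticle libraries, 47.9 and 47.7 CPM in the PBS libraries; log2 0.15, edgeR adjusted p = 0.0984). Among 14 acetyl-lysine readers and Mediator genes MED13, of the Mediator kinase module, rose (78.7 and 77.7 CPM in the nanoparticle libraries, 68.2 and 66.8 CPM in the PBS libraries; log2 0.21, edgeR adjusted p = 0.008). Of 9 deacetylases and corepressors NCOR1 (log2 0.14, adjusted p = 0.0362) and RCOR1 (log2 0.15, adjusted p = 0.0421), both corepressor scaffolds, rose. Taking out the length trend left MED13 at log2 0.12 (adjusted p = 0.198), NCOR1 at 0.048 (adjusted p = 0.594) and RCOR1 at 0.10 (adjusted p = 0.197), and none of these 3 passed by DESeq2. NCOR1 and RCOR1 did not pass with upper-quartile scaling either.

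None of 12 SWI/SNF remodelling genes passed by the 3 tools, with 2 higher at an unadjusted p under 0.05. ARID1A, the large subunit of the BAF complex, had a log2 fold change of 0.13 (SE 0.037, edgeR adjusted p = 0.0648). It passed in 4 of the 17 alternatives. These were scaling by total counts, a required mean of at least 50 counts, the replicate block and the GC trend removed. HOXA genes and MEIS1, targets of KMT2A in leukaemia, gave no call either in 11 tested genes, with 1 higher at an unadjusted p under 0.05. That was HOXA6, at 1.08 and 0.804 CPM in the nanoparticle libraries and 0.674 and 0.447 CPM in the PBS libraries (log2 0.74, SE 0.341, edgeR adjusted p = 0.272). HOXA9, a direct KMT2A target, had 17.8 and 17.1 CPM in the nanoparticle libraries and 17.5 and 15.2 CPM in the PBS libraries (log2 0.092, SE 0.083).

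Per kilobase of principal transcript the order of the genes was set by KMT2B and SETD1A at the top and KMT2C at the bottom, in both groups. KMT2B had 18.2 ± 0.837 CPM per kilobase in the nanoparticle libraries and 16.5 ± 0.961 in the PBS libraries (mean ± SD, n = 2 each), and SETD1A had 14.6 ± 0.365 in the nanoparticle and 13.4 ± 0.738 in the PBS libraries. In the nanoparticle libraries these were followed by SETD1B at 8.41, KMT2E at 7.71, KMT2A at 6.14, CREBBP at 5.56, KMT2D at 5.30, KDM6A at 3.88 and EP300 at 3.51 CPM per kilobase. In the PBS libraries the same genes came in the same order, with SETD1B at 7.51, KMT2E at 6.93, KMT2A at 4.91, CREBBP at 4.71, KMT2D at 3.81, KDM6A at 3.60 and EP300 at 2.71 CPM per kilobase. KMT2C, with 1.85 ± 0.0191 in the nanoparticle and 1.39 ± 0.0575 in the PBS libraries, was the lowest. In the nanoparticle libraries the ranges of CREBBP and KMT2D overlapped. In the PBS libraries those of SETD1B and KMT2E, of KMT2A and CREBBP, and of KMT2D and KDM6A did, so that these neighbours are not ordered beyond the spread of 2 libraries. With the union of exons as length KMT2A took rank 8 in place of rank 5 in the PBS libraries, and KMT2B, SETD1A and KMT2C kept their places.

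The genes most like the mean profile of the 10 over the 4 libraries, by distance between centred log2 CPM values among 10841 other genes, were HELZ, CBL, ATXN7L1, DFFB and ATG2B, with distances of 0.0066 to 0.0264. HELZ had 33.9 and 35.5 CPM in the nanoparticle libraries and 28.0 and 30.2 CPM in the PBS libraries, and its principal transcript has 13810 bases. With 4 libraries many genes lie close to any profile, so this is a description only.

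Some of the 10 genes share exonic bases with other annotated genes, and whether counting used strand was not given in the sources used here. KMT2A shares 5599 bases with a protein-coding gene without a symbol on the same strand, itself at 0 counts in all 4 libraries, and reads there may have been left uncounted as ambiguous. KMT2D shares 261 bases with DDN-AS1 on the opposite strand, which had 94 and 107 counts in the nanoparticle libraries and 91 and 99 in the PBS libraries. KMT2E shares 143 bases with KMT2E-AS1 and 98 with SRPK2, both on the opposite strand. SETD1B, KDM6A and CREBBP overlap no exon of another gene in GENCODE 29.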

How the data were processed

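mRNA of H1299 cells was sequenced in 2 nanoparticle and 2 PBS libraries (300 ng total RNA each, stranded kit, per the labels' protocols). The deposited counts are whole reads per Ensembl gene with no normalization. Tools named in the submitters' processing notes include STAR 2.7.6a for alignment and HTSeq 2.0.2 for counting (their roles are taken from what the tools do), with GRCh38 as the build. Their annotation release was not given in the sources used here. Rows for reads given to no gene (13.7% to 14.8% of reads) were left out.

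A gene name table gave symbols to 61369 rows and GENCODE 29 to 159 more. Genes were filtered with filterByExpr, scaled by TMM and tested, nanoparticle against PBS, with the two-sided quasi-likelihood test of edgeR 4.0.16 (glmQLFit, glmQLFTest), adjusted by Benjamini-Hochberg over all tested genes. Standard errors came from the coefficient and its F statistic. CPM used TMM-scaled library sizes. Length and GC content are those of the principal transcript (known for 98.2% of tested genes). Their trends were removed as offsets, from a natural spline of 4 degrees of freedom, fitted robustly with MASS, of each library's deviation from the gene mean over genes of at least 5 CPM. The chi-square per degree of freedom was 2.05 between the nanoparticle and 1.85 between the PBS libraries, so none was a copy. DESeq2 1.42.0 and limma 3.58.1 were alternatives. Simulated data were given a length trend over all genes. Many more genes with no other change were called with the trend left in, as in the main test, than with it removed. This follows from the setting of the simulation and does not measure how many calls of the main test are false.

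The 10 genes, the lists and the alternatives were chosen with earlier results of these data known. All 10 genes were named. From each list the genes past the threshold were named, at most 4, or else the one with the smallest p, and the 5 genes nearest in profile. WDR5, HOXA9, NSD2, EHMT2, DOT1L and PSIP1 were added after their values were seen.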

Additional observations from a re-analysis of the deposited data

How the results depend on the processing

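The median log2 fold change of the 10 genes lay between 0.13 and 0.28 over 17 alternatives, and that of each gene was above 0 in all of them except KDM6A without nanoparticle replicate 2. Against 407 genes past the threshold, 90 passed by DESeq2, 227 with the length trend removed, 262 with length and GC trends removed and 245 with the trend of union-exon length removed, an alternative added after seeing the data. With the replicate block 759 passed, but replicate numbers pair nothing in the labels, and same-numbered deviations had a correlation of 0.035 over 11107 genes. None passed in edgeR's test with no low-count filter, a count of 0 beside 2297 at an unadjusted p under 0.05. Leaving out 1 library gave 0 to 200: 0 without PBS replicate 1 (1562 unadjusted), 0 without PBS replicate 2 (1672 unadjusted), 200 without nanoparticle replicate 1 and 76 without nanoparticle replicate 2. Upper-quartile scaling gave 223 higher and 190 lower, against 276 and 131, and shifted the median of all genes by -0.012.

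Of the list genes 8 were past the threshold, all higher. This became 0 with no low-count filter, 2 by DESeq2, 13 with the replicate block, 1 with the length trend removed, 1 with length and GC trends removed (ASH1L in both), 2 with union-exon length, and 0 to 4 without 1 library (0 without either PBS library, 4 without nanoparticle replicate 1, 1 without nanoparticle replicate 2). The count was 6 with upper-quartile scaling. It was 11 with scaling by total counts, 11 with a required mean of at least 50 counts and 11 with the GC trend removed. HDAC2 was lower, as 1 gene against 0, with the length trend removed and with both removed. The cause of these changes was not tested. The standard error was 0.041 to 0.081 (log2) for the 10 genes. Differences smaller than that were not detectable with these 4 libraries, but it is not a limit of detection. In the main test KMT2B, with a log2 fold change of 0.15 and a standard error of 0.041, was not past the threshold.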
